A study of Mus musculus with 16 samples.

Results

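The Reg genes encode small secreted proteins with a C-type lectin fold, and 6 of the 23847 rows of the expression table carried their names: Reg1, Reg2, Reg3a, Reg3b, Reg3g and Reg4. Their rows were taken by gene symbol, and each symbol had 1 row. The family was chosen with earlier results of these data known. Expression was measured by RNA sequencing in small intestinal organoids of C57BL/6 mice, epithelial cultures grown from isolated crypts and harvested at day 3. The 16 libraries formed 4 groups of 4: Atg16L1 dIEC organoids and Atg16L1 f/f organoids, each given 20 ng/ml murine TNF for 2 hours, and dIEC and f/f organoids without stimulation. The series calls dIEC organoids ATG16L1-deficient and f/f organoids wild type, and the sources used here do not give the Cre driver behind dIEC. ATG16L1 is a core autophagy protein needed to attach LC3 to membranes. No label names the animal or culture behind a library, so each p-value reflects spread among libraries that may be technical.

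In the intestine, Reg3 lectins are released by enterocytes, Paneth cells and goblet cells into the mucus layer. Reg3g binds peptidoglycan and kills Gram-positive bacteria, and Reg3b acts against Gram-negative bacteria. Their genes are known to respond to microbial signals through MyD88 and to interleukin-22 through the transcription factor STAT3. TNF is an inflammatory cytokine that signals mainly through NF-kB and can also trigger cell death.

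With TNF, Reg3b fell to 5.27% of the unstimulated mean in dIEC organoids and to 25.2% in f/f organoids. Reg3a fell to 31.2% in dIEC organoids and to 88.2% in f/f organoids, and Reg1 fell in both. Reg3g, the neighbour of these genes on chromosome 6, lay between 41.4 and 67.9 FPKM in all 16 libraries and was called in none of the 5 comparisons, though in some of them under other settings. Reg4 with TNF was higher in dIEC organoids than in f/f organoids, and Reg2 was close to 0 everywhere. FPKM are fragment counts scaled to transcript length and library total. The deposited table is titled as normalized read counts while its columns are headed FPKM, and each level compared between genes rests on reading the values as FPKM. These are bulk samples, in which fewer cells of a type and less RNA per cell cannot be told apart.

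Apart from Reg4, the family lies in 1 stretch of chromosome 6 (GENCODE M21 annotation of GRCm38, the mm10 build). Reg3b spans 78370657 to 78373466 on the plus strand, Reg3a 78380709 to 78383827 (plus), Reg2 78395623 to 78408106 (plus), Reg1 78422711 to 78428667 (plus) and Reg3g 78466269 to 78468872 (minus). Reg3d, a family gene that was not among the 6, lies between Reg3b and Reg3a at 78375874 to 78378865 on the minus strand. The 6 genes fill 98.2 kb with no other annotated gene between them, and Reg4 lies on chromosome 3 (98222156 to 98236748, plus). The promoters of Reg3b, Reg3a, Reg1 and Reg3g are shown because these neighbours differed most in their response to TNF. Each runs 250 bases before to 50 bases after the RefSeq start (RefSeq, GRCm38.p6), 5′ to 3′ on the gene's own strand. Capitals mark matches to a STAT motif (TTCNNNGAA), the kappa-B consensus bound by NF-kB, or the TATA motif (TATAAA) on either strand. The coordinates are chr6:78370635-78370934 (plus) for Reg3b, chr6:78380459-78380758 (plus) for Reg3a, chr6:78425733-78426032 (plus) for Reg1 and chr6:78468825-78469124 (minus) for Reg3g. The RefSeq starts of Reg3b and Reg1 lie inside the longer GENCODE genes.
Reg3b: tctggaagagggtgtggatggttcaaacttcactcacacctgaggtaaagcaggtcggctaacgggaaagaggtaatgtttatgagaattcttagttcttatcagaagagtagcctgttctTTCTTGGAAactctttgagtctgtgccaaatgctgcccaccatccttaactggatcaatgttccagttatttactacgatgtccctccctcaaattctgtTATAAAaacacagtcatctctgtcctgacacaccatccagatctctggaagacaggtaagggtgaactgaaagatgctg
Reg3a: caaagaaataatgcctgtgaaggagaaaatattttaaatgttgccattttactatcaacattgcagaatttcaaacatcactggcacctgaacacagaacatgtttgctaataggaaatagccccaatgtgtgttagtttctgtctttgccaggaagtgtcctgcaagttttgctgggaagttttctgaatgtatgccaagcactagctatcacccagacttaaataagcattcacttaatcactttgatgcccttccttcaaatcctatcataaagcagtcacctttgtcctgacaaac
Reg1: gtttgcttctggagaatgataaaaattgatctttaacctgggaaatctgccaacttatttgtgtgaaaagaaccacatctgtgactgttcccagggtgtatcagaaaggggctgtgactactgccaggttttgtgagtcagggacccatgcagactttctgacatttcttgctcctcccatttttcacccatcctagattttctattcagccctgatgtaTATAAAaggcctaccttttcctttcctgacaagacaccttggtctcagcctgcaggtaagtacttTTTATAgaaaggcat
Reg3g: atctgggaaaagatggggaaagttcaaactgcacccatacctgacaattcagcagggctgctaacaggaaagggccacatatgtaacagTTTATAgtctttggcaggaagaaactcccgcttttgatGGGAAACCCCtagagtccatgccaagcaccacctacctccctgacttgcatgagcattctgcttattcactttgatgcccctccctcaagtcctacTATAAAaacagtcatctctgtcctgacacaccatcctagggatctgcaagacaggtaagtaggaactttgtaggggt

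The Reg3b promoter held a STAT motif 129 bases before the start and a TATA motif 29 bases before it. The Reg3g promoter held a kappa-B match, GGGAAACCCC, that begins 123 bases before the start and reads as a match on both strands, and a TATA motif 27 bases before the start. It also held TATAAA on the opposite strand, 161 bases before the start. The Reg1 promoter held a TATA motif 30 bases before the start and TATAAA on the opposite strand after the start. None of the 3 motifs was found in these windows of Reg3a and Reg4. The Reg2 promoter held a TATA motif 30 bases before the start, and that of Reg3d a STAT motif 238 bases before it. Of 32851 mouse promoters of the same length, 8.30% held the STAT motif, 8.46% the kappa-B consensus and 13.6% TATAAA. The letters of the Reg3b and Reg3g promoters were 72.9% identical over 292 aligned bases. Those of Reg3a and Reg3g were 77.0% identical over 239 bases. A match is a description of these letters and does not show that a factor binds there.

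Transcripts were alike between Reg1 and Reg2 and among the Reg3 genes. Reg3b and Reg3g were 76.5% identical with a longest shared run of 35 bases, and Reg1 and Reg2 were 81.5% identical with a longest shared run of 19 bases. None of the 21 pairs of family transcripts (0 of 21) shared a run of 50 bases. How the authors divided reads that match more than 1 gene, and whether they counted by strand, the sources used here do not say, so that the split of reads within the family is uncertain to that degree.

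Cell markers and the targeted gene were checked first. All 10 epithelial markers averaged at least 1 FPKM, with Epcam between 291 and 367 and Vil1, a brush border protein, between 95.9 and 168. Since Reg genes are also expressed in the exocrine pancreas, acinar genes were read as well: 1 of 13 averaged at least 1 FPKM (Cela1), and Prss1 and Cpa1 were listed at 0 in all 16 libraries. Of 13 immune genes read, 2 averaged at least 1 FPKM, Lyz2 the higher of them, and Cd4, Il22 and Il17a were listed at 0 in all 16. Atg16l1 itself was lower in dIEC organoids by a log2 change of -0.47 with TNF (limma adjusted p = 0.000233) and of -0.59 without (0.000122). Depth is unknown, since no read counts were used. The FPKM of a library summed to between 494221 and 610125, and 10796 to 11144 genes per library reached 1 FPKM. In a principal component analysis 4 libraries stood apart on the second component: f/f library 1 and dIEC library 4, with and without TNF.

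Each gene was tested with limma on log2(FPKM + 1), which understates the change of low genes, with p-values adjusted over the 11097 rows that averaged at least 1 FPKM. Of the 6 Reg genes 5 passed that minimum, all except Reg2. A gene was called at an adjusted p under 0.05. A second fit treated the libraries of 1 genotype with the same number as a pair (a block by genotype and number), and its values stand beside results whose call or count it changed.

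**Figure D1:**
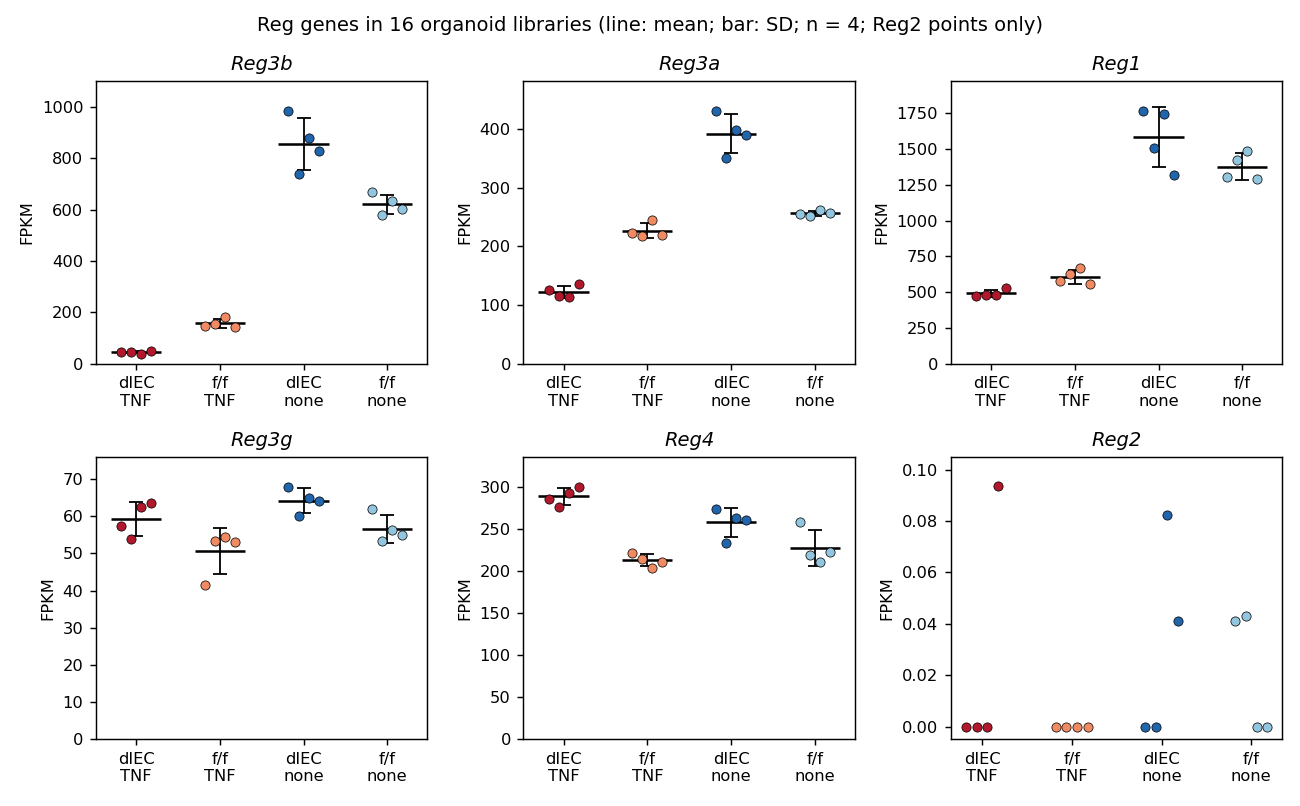
FPKM of the 6 Reg genes in each library (points), with the group mean (line) and SD (bar) over 4 libraries, for dIEC with TNF, f/f with TNF, dIEC and f/f. Reg3b averages 45.2 FPKM in dIEC with TNF and 157 in f/f with TNF, against 857 in dIEC and 621 in f/f, while Reg3g stays between 41.4 and 67.9 FPKM (Reg2 is shown as points only).

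Reg3b had the widest range of the 5 tested members as a fold, though not in FPKM. It measured 47.2, 44.8, 39.5 and 49.4 FPKM in dIEC libraries 1 to 4 with TNF, and 147, 153, 183 and 144 FPKM in f/f libraries with TNF. Without stimulation it measured 983, 739, 879 and 828 FPKM in dIEC libraries and 669, 581, 633 and 601 FPKM in f/f libraries. None of the 4 groups overlapped with another, and the order ran from dIEC with TNF (lowest) through f/f with TNF and unstimulated f/f to unstimulated dIEC. In dIEC organoids TNF lowered Reg3b by 19.0-fold (log2 change -4.21, SE 0.0958, limma adjusted p = 6.3e-14). In f/f organoids TNF lowered it by 3.96-fold (log2 change -1.98, adjusted p = 4.44e-10). Among all tested genes these were the 8th and the 32nd largest falls.

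The 2 responses of Reg3b differed by -2.23 on the log2 scale (dIEC minus f/f, SE 0.136, limma adjusted p = 4.66e-07). Genotype therefore went in opposite directions: with TNF Reg3b was at 28.9% of the f/f mean in dIEC organoids (log2 change -1.77, adjusted p = 3.2e-08), and unstimulated it was at 138% (0.46, adjusted p = 0.0209). The unstimulated rise is the weaker of these calls. It was lost after quantile normalization (0.0501), in a fit of the 8 unstimulated libraries (0.0590), and on leaving out unstimulated f/f library 2 (0.0724), f/f library 3 (0.0533), f/f library 4 (0.0694), dIEC library 1 (0.0731) or dIEC library 3 (0.0559). Without the 4 libraries apart the difference of responses was -2.35 (adjusted p = 2.25e-05).

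Reg3a, whose bactericidal activity is best known from its human counterpart, moved in the same directions. It measured 126, 115, 113 and 136 FPKM in dIEC libraries with TNF, and 222, 218, 245 and 219.7 FPKM in f/f libraries with TNF. Unstimulated dIEC libraries had 430.4, 351, 398 and 389.8 FPKM, and unstimulated f/f libraries 256, 251, 261 and 257 FPKM. The 4 groups were again separate and in the same order as for Reg3b. TNF lowered Reg3a in dIEC organoids by a log2 change of -1.67 (SE 0.0672, limma adjusted p = 4.68e-11). In f/f organoids the fall was -0.18 (adjusted p = 0.0380). This small fall was not called with no minimum mean (0.0516), after quantile normalization (0.189), without the 4 libraries apart (0.0561), with 1 of the 4 f/f libraries without stimulation left out (0.0531 to 0.0822 over the 4), or without f/f library 1 (0.0654), 2 (0.0913) or 4 (0.0905) with TNF.

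The responses of Reg3a differed by -1.49 (dIEC minus f/f, SE 0.095, limma adjusted p = 4.66e-07). With TNF, Reg3a was at 54.1% of the f/f mean in dIEC organoids (log2 change -0.88, adjusted p = 1.23e-06), and unstimulated at 153% (0.61, adjusted p = 0.000144). Both genotype calls and the difference were kept under each alternative that was run.

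Reg1, a member first described in regenerating pancreatic islets, was the highest Reg gene in every group. It measured 475, 480.4, 478 and 531 FPKM in dIEC libraries with TNF, and 577, 626, 666 and 556 FPKM in f/f libraries with TNF. Without stimulation it measured 1763, 1508, 1742 and 1318 FPKM in dIEC libraries and 1305, 1421, 1488 and 1288 FPKM in f/f libraries. All libraries with TNF lay below all unstimulated ones, and the unstimulated genotypes overlapped. TNF lowered Reg1 to 31.0% of the unstimulated mean in dIEC organoids (log2 change -1.68, limma adjusted p = 1.29e-09) and to 44.1% in f/f organoids (-1.18, adjusted p = 7.87e-08).

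The TNF responses of Reg1 differed by -0.50 (SE 0.128, limma adjusted p = 0.0492), at the edge of the threshold. The call was lost with no minimum mean (0.0758), with a pseudocount of 0.1 (0.0505) and without any 1 of 14 libraries (0.0521 to 0.112), and held among single omissions only without dIEC library 4 with or without TNF. With TNF the genotypes did not overlap, 491 ± 26.9 FPKM in dIEC and 606 ± 49.7 FPKM in f/f (SD, n = 4), yet the log2 change of -0.30 was not called (95% interval -0.49 to -0.11, adjusted p = 0.0657). It was called without the 4 libraries apart (0.0125), without unstimulated dIEC library 4 (0.0209), after quantile normalization (0.0246) and with sample weights (0.00217). The unstimulated difference of Reg1 was 0.19 (adjusted p = 0.469, and 0.0236 with sample weights).

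Reg3g, the peptidoglycan-binding member, was not called in any of the 5 comparisons. It measured 57.5, 53.8, 62.5 and 63.7 FPKM in dIEC libraries with TNF, and 41.4, 53.4, 54.4 and 53.2 FPKM in f/f libraries with TNF. Unstimulated dIEC libraries had 67.9, 60.0, 65.0 and 64.1 FPKM, and unstimulated f/f libraries 61.9, 53.2, 56.4 and 55.0 FPKM. Groups next to each other in the order of means overlapped. TNF gave a log2 change of -0.11 in dIEC organoids (95% interval -0.29 to 0.06, limma adjusted p = 0.261) and of -0.17 in f/f organoids (-0.34 to 0.01, adjusted p = 0.114). The difference of responses was 0.05 (-0.20 to 0.30, adjusted p = 0.963). The lowest bound of the TNF intervals, -0.34, compares with a change of -1.98 for Reg3b in f/f organoids, and small changes of Reg3g cannot be told from none. Genotype gave 0.23 with TNF (adjusted p = 0.124) and 0.18 without (0.458). The unstimulated value was called with sample weights (0.0111) or without the 4 libraries apart (0.0375), and the TNF response in dIEC organoids under the same settings (0.00610 and 0.0315). In f/f organoids the TNF response was called after median-of-ratios scaling (0.0458).

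Reg4, known as a marker of enteroendocrine cells in the small intestine and of deep crypt secretory cells in the colon, was the only member called higher in dIEC organoids with TNF. It measured 286, 277, 294 and 300.3 FPKM in dIEC libraries with TNF, and 222, 215, 205 and 211 FPKM in f/f libraries with TNF. Without stimulation the values were 275, 234, 263 and 261 FPKM in dIEC libraries and 259, 219, 211 and 223 FPKM in f/f libraries. Every dIEC library with TNF lay above every library of the other groups. Reg4 was at 136% of the f/f mean in dIEC organoids with TNF (log2 change 0.44, SE 0.0634, limma adjusted p = 0.000433). Unstimulated, the change of 0.18 was not called (adjusted p = 0.224), but was called with sample weights (0.00100), without the 4 libraries apart (0.0261) or without f/f library 1 (0.0389).

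TNF changed Reg4 in dIEC organoids by 0.16 (limma adjusted p = 0.0406). That call was lost after median-of-ratios scaling (0.542) or quantile normalization (0.0586), with no minimum mean (0.0525) and in a fit of the 8 dIEC libraries (0.0560). It was also lost on leaving out 1 unstimulated library, f/f library 4 (0.0505) or dIEC library 2 (0.128), 3 (0.0562) or 4 (0.0541). The same held for 1 library with TNF, f/f library 4 (0.0507) or dIEC library 1 (0.0648), 3 (0.0860) or 4 (0.0876). In f/f organoids the change of Reg4 was -0.09 (adjusted p = 0.247). The responses differed by 0.26 (95% interval 0.07 to 0.45, adjusted p = 0.167), a difference that was called in the fit with a block by genotype and number (adjusted p = 0.0285). The summed level of 16 enteroendocrine markers was 557 to 689 FPKM in dIEC with TNF, 391 to 478 in f/f with TNF, 385 to 456 in dIEC and 348 to 410.2 in f/f. Of these markers 15 averaged at least 1 FPKM, and none was at 0 in all libraries. The part of these cells in the level of Reg4 was not tested.

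Reg2, a member best known from the pancreas, was listed above 0 in 5 of 16 libraries and reached at most 0.0938 FPKM. It was above 0 in 1 of 4 dIEC libraries with TNF, in 0 of 4 f/f libraries with TNF, and in 2 of 4 unstimulated libraries of each genotype. With no minimum mean its limma adjusted p lay between 0.531 and 1 in the 5 comparisons, at levels where the test says little. Reg3d, the family gene between Reg3b and Reg3a, was low but fell with TNF. It averaged 0.682 FPKM in dIEC with TNF and 0.995 in f/f with TNF, against 2.29 in dIEC and 2.36 in f/f. With TNF it was at 29.8% of the unstimulated mean in dIEC organoids and at 42.1% in f/f organoids. Its log2 changes with TNF, which the added 1 understates at these levels, were -0.98 in dIEC organoids (limma adjusted p = 5.08e-07) and -0.76 in f/f organoids (9.91e-06). The responses were not called different (adjusted p = 0.529).

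**Figure D2:**
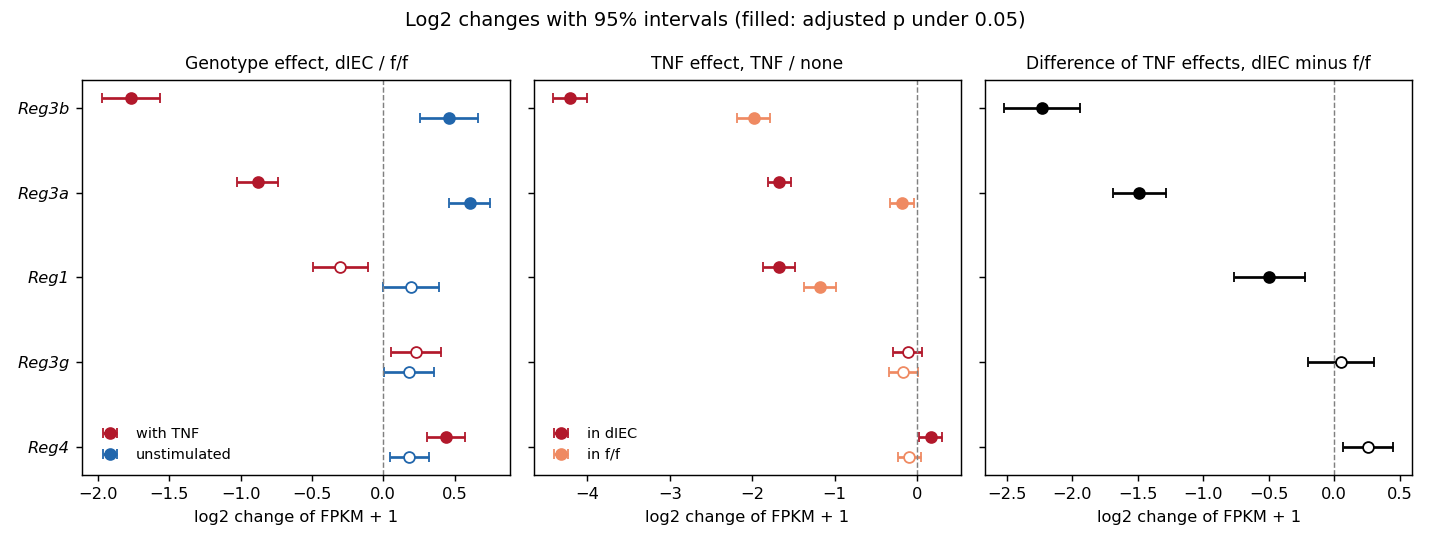
Log2 changes of FPKM + 1 with 95% intervals for the 5 tested Reg genes: genotype (left), TNF (middle) and the difference of the TNF responses, dIEC minus f/f (right). Filled points have a limma adjusted p under 0.05. Reg3b has -4.21 in dIEC and -1.98 in f/f for TNF, and a difference of -2.23.

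Set against all tested genes, the calls read as follows. With TNF, 3 of 5 Reg genes differed between the genotypes (1 higher, 2 lower), where 6.5% of all genes were called (3.79% higher, 2.7% lower). Unstimulated, 2 of 5 were higher in dIEC organoids, where 2.32% of all genes were called (1.54% higher, 0.784% lower). That count was 1 when f/f library 2, 3 or 4 was left out, 1 when dIEC library 1 or 3 was, and 3 when f/f library 1 was. TNF lowered 3 of 5 and raised 1 in dIEC organoids, where 53.1% of all genes were called (33.4% higher, 19.8% lower). It lowered 3 of 5 in f/f organoids, where 47.2% of all genes were called (26.9% higher, 20.3% lower), so that a call for TNF is itself common. The difference of responses was called for 3 of 5, all lower, where 3.29% of all genes were called (1.39% higher, 1.9% lower). With 1 library left out it was called for 2 to 3 of 5, and with no minimum mean for 2, Reg1 being the call lost. With the block by genotype and number it was called for 4 of 5. The count over all genes for the difference, 365, was 1231 with that block, 1920 with sample weights, 961 without the 4 libraries apart and 239 with unstimulated f/f library 4 left out, so the share over all genes depends on the fit. The median log2 change of the 5 was -0.30 for genotype with TNF (0.01 over all genes), 0.19 unstimulated (-0.02), -1.67 for TNF in dIEC organoids (0.09), -0.18 for TNF in f/f organoids (0.05) and -0.50 for the difference (0.03).

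The order of the family by level therefore changed. In unstimulated organoids of both genotypes it was Reg1, Reg3b, Reg3a, Reg4, Reg3g and Reg2, with Reg3a and Reg4 overlapping in f/f libraries only. In f/f organoids with TNF Reg3b came below Reg3a and Reg4, which overlapped. In dIEC organoids with TNF it came below Reg3g too, with a highest value of 49.4 FPKM against a lowest of 53.8 FPKM for Reg3g. The 6 genes together made up 0.180 to 0.210% of all FPKM in dIEC with TNF, 0.213 to 0.254% in f/f with TNF, 0.515 to 0.577% in dIEC and 0.425 to 0.451% in f/f. Reg3b gave 4.49% of the summed Reg FPKM in dIEC with TNF, 12.5% in f/f with TNF, 27.2% in dIEC and 24.5% in f/f. Reg4 gave 28.7% in dIEC with TNF, 17.0% in f/f with TNF, 8.18% in dIEC and 8.98% in f/f.

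Ratios within a library do not change when each library is scaled by a single factor. The level of Reg3b over that of Reg3g ran from 0.631 to 0.832 in dIEC with TNF, 2.70 to 3.54 in f/f with TNF, 12.3 to 14.5 in dIEC and 10.8 to 11.2 in f/f. These ranges did not overlap. Reg3a over Reg3g ran from 1.81 to 2.19 in dIEC with TNF, below the 4.09 to 5.36 of f/f with TNF, the 5.85 to 6.34 of dIEC and the 4.14 to 4.72 of f/f. Reg4 over Reg3g ran from 4.70 to 5.14 in dIEC with TNF, 3.76 to 5.35 in f/f with TNF, 3.90 to 4.07 in dIEC and 3.73 to 4.18 in f/f. The members of the family thus changed unequally, whatever factor each library is scaled by. Quantile normalization is not such a factor, and ratios after it were not read.

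**Figure D3:**
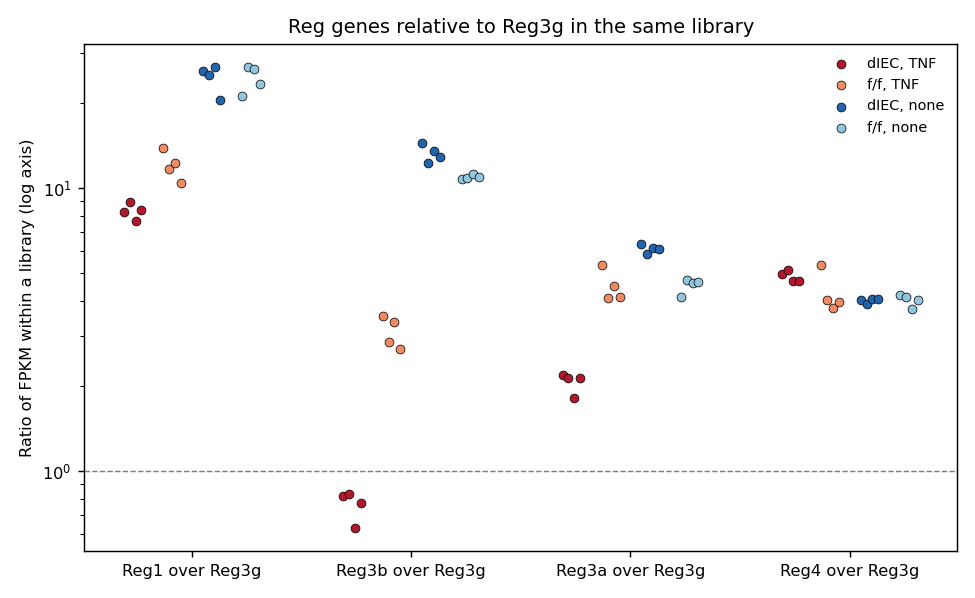
Ratio of the FPKM of Reg1, Reg3b, Reg3a and Reg4 to that of Reg3g in the same library (log axis), by group, with 1 point per library. Reg3b falls below Reg3g (ratio 0.631 to 0.832) in dIEC with TNF and exceeds it 10.8 to 14.5 times in unstimulated libraries.

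**Figure D4:**
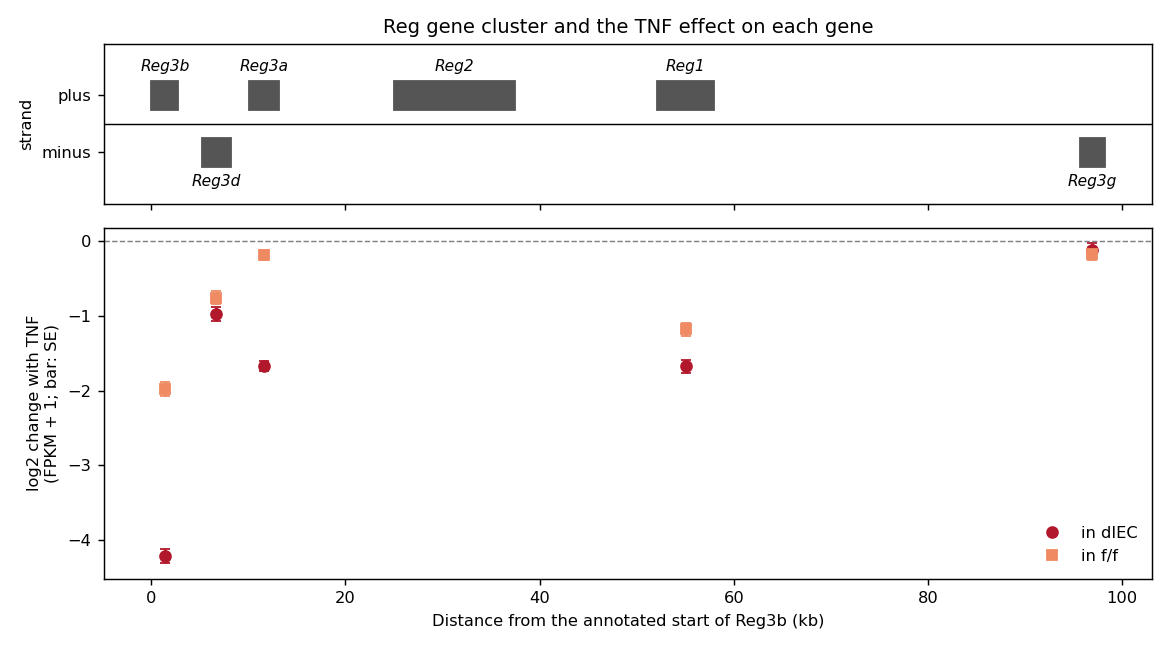
Map of the Reg cluster by distance from the start of Reg3b (kb), with genes drawn on their strand, and below it the log2 change with TNF of each tested gene in dIEC and f/f organoids (bar: SE). In dIEC organoids Reg3b at one end changes by -4.21 and Reg3g at the other by -0.11.

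Genes of the STAT3 pathway were read because Reg3 genes are known targets of it. Of 22 listed genes 17 passed the minimum. TNF raised 12 and lowered 1 (Il10rb, -0.16, named after its values were seen) in dIEC organoids, and raised 11 and lowered 0 in f/f organoids. Over all genes TNF raised 33.4% and lowered 19.8% in dIEC organoids, and raised 26.9% and lowered 20.3% in f/f organoids. With the block by genotype and number TNF raised 13 and lowered 2 of the list in dIEC organoids. Most called genes of this list rose with TNF, while Reg3b, Reg3a and Reg1 fell. These are transcript levels, and the activity of STAT3 and its part in the levels of the Reg genes were not tested. Bcl3, an IkB family member and STAT3 target, averaged 35.3 ± 7.28 FPKM in dIEC with TNF and 35.1 ± 6.46 in f/f with TNF, against 2.77 in dIEC and 2.60 in f/f (SD, n = 4). Il22ra1, a subunit of the interleukin-22 receptor, averaged 14.5 FPKM in dIEC with TNF and 12.0 in f/f with TNF, against 8.20 in dIEC and 7.22 in f/f. Il6st, the shared receptor chain of the interleukin-6 family, rose by 1.23 in dIEC and 1.19 in f/f organoids on the log2 scale. Stat3 itself rose by 0.22 in dIEC organoids (limma adjusted p = 0.0124) and 0.19 in f/f organoids (0.0291), with no call for the difference (0.03, adjusted p = 0.979). Stat3 and Socs3, a feedback inhibitor, were picked out after their values were seen. Socs3 was not called with TNF in dIEC organoids (0.20, adjusted p = 0.161) or f/f organoids (0.07, 0.649).

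Between genotypes the STAT3 list gave 2 genes higher in dIEC organoids with TNF and 0 lower (Il22ra1, 0.26, among them), 1 without dIEC library 1 with TNF, and 0 genes of either direction unstimulated. The shares over all genes were 3.79% higher and 2.7% lower with TNF, and 1.54% higher and 0.784% lower unstimulated.

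Genes of other mucosal defence products did not share 1 direction. Of 33 listed genes 14 passed the minimum. TNF raised 8 and lowered 4 in dIEC organoids, and raised 8 and lowered 3 in f/f organoids. The shares over all genes were 33.4% higher and 19.8% lower in dIEC organoids, and 26.9% higher and 20.3% lower in f/f organoids. Nos2, inducible nitric oxide synthase, averaged 31.5 ± 2.59 FPKM in dIEC with TNF and 11.9 ± 1.45 in f/f with TNF, against 0.942 in dIEC and 0.441 in f/f (SD, n = 4). On the log2(FPKM + 1) scale its response was larger in dIEC organoids by 0.90 (limma adjusted p = 0.000611), the opposite direction to Reg3b. Unstimulated Nos2 averaged under 1 FPKM in both genotypes, where the added 1 can enlarge such a difference. Duoxa2 and Duox2, which together form an epithelial hydrogen peroxide source, had differences of 0.73 and 0.70. Zg16, a goblet cell lectin that binds Gram-positive bacteria, went with Reg3b, Reg3a and Reg1, not with Reg3g or Reg4. It averaged 83.9 FPKM in dIEC with TNF and 118 in f/f with TNF, against 253 in dIEC and 209.5 in f/f. Its unstimulated rise in dIEC organoids was not called (0.26, limma adjusted p = 0.224). Its response differed by -0.75 (adjusted p = 0.00380).

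Between genotypes, 6 of the 14 were higher and 2 lower in dIEC organoids with TNF, and 4 were higher and 2 lower unstimulated. Over all genes 3.79% were higher and 2.7% lower with TNF, and 1.54% higher and 0.784% lower unstimulated. The unstimulated rises, Pigr, Muc13, Nos2 and Lypd8, numbered 1 when f/f library 2 was left out, and 2 when f/f library 4, dIEC library 1 or dIEC library 2 was. In the difference of responses 4 were higher and 1 lower, where 1.39% of all genes were higher and 1.9% lower. With a pseudocount of 0.1 only 2 of the list were higher.

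Markers of enterocytes, Paneth cells and goblet cells, which release Reg proteins, were read beside them. Enterocyte markers summed to 9541 to 10939 FPKM in dIEC with TNF, 10693 to 11278 in f/f with TNF, 8651 to 10491 in dIEC and 8067 to 8354 in f/f, all 12 averaging at least 1 FPKM. The sums with and without TNF overlapped in dIEC organoids, and in f/f organoids every library with TNF was higher. TNF raised 4 and lowered 3 of the 12 in dIEC organoids, shares near the 33.4% and 19.8% of all genes, and raised 7 and lowered 1 in f/f organoids (2 lowered without unstimulated f/f library 1). With the block by genotype and number it raised 6 and lowered 5 in dIEC organoids, and raised 7 and lowered 2 in f/f organoids. Fabp2, the intestinal fatty acid binding protein, was among the falls in both (log2 change -1.38 in dIEC and -0.95 in f/f organoids). In the difference of responses 0 of the 12 were higher and 4 lower (Lct, -1.08, Sis, -0.68, Slc5a1, -0.57, and Krt20, -0.42), and with that block 1 was higher and 8 lower. Unstimulated, 5 were higher in dIEC organoids and 0 lower. The 5 became 2 when f/f library 1, 2 or 4 was left out or when dIEC library 2 was, and 3 when f/f library 3, dIEC library 1 or dIEC library 4 was. With TNF 1 was higher and 1 lower. Leaving out dIEC library 4 of the TNF group gave 2 higher, as did leaving out f/f library 1 of the unstimulated group, and leaving out f/f library 1 of the TNF group gave 2 lower. Over all genes, TNF in f/f organoids raised 26.9% and lowered 20.3%, and 1.39% were higher and 1.9% lower in the difference. Between genotypes 3.79% were higher and 2.7% lower with TNF, and 1.54% and 0.784% unstimulated.

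Paneth markers summed to 14111 to 15852 FPKM in dIEC with TNF, 18691 to 21765 in f/f with TNF, 15230 to 18087 in dIEC and 19189 to 22171 in f/f, and all 14 averaged at least 1 FPKM. These sums were lower in dIEC organoids in both treatments, with 7 lower and 1 higher with TNF and 6 lower and 0 higher unstimulated. Over all genes 2.7% were lower and 3.79% higher with TNF, and 0.784% lower and 1.54% higher unstimulated. TNF raised 7 and lowered 5 in dIEC organoids (3 lowered without unstimulated dIEC library 1) and raised 9 and lowered 1 in f/f organoids (2 lowered with the block by genotype and number). In the difference of responses 1 was higher and 2 lower (2 and 2 with that block). The shares over all genes were 33.4% higher and 19.8% lower for TNF in dIEC organoids, and 26.9% and 20.3% in f/f organoids. For the difference they were 1.39% and 1.9%. Goblet markers summed to 2869 to 3519 FPKM in dIEC with TNF, 2668 to 3783 in f/f with TNF, 3048 to 4285 in dIEC and 3334 to 3618 in f/f, and all these ranges overlapped. TNF raised 2 and lowered 2 of the 10 goblet markers in each genotype, below the shares over all genes of 53.1% in dIEC and 47.2% in f/f organoids. The part of any of these cell types in the levels of the Reg genes was not tested.

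Patterns over the 16 libraries were compared by the root-mean-square difference of standardized log2 values, where 0 means the same pattern. This is a description over libraries that share their groups. The genes nearest to Reg3b were Trim38, a ubiquitin ligase (0.129), Bco2, a carotenoid-cleaving enzyme (0.152), and Cd36, a fatty acid transporter (0.163). Trim38 averaged 1.36 FPKM in dIEC with TNF and 2.69 in f/f with TNF, against 7.67 in dIEC and 6.16 in f/f. Among the genes nearest to Reg3a were the actin-severing Scin (0.178) and Pcp4l1 (0.207). Scin averaged 36.2 FPKM in dIEC with TNF and 59.0 in f/f with TNF, against 84.5 in dIEC and 68.5 in f/f. Nearest to Reg1 were Scp2, a sterol carrier (0.126), Fabp2 (0.140) and Bcl2l15 (0.143).

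Within the family Reg1 and Reg3b lay at 0.257 and Reg3a and Reg3b at 0.333 from each other. Reg3g lay at 1.05 to 1.19 from these 3 genes, which share its cluster, and at 0.859 from Reg4. Of the 11097 rows, 3019 lay nearer to Reg1 than Reg3g did, 3263 nearer to Reg3a and 3398 nearer to Reg3b, so most rows lay farther off than Reg3g. Reg4 lay farther from the same 3 genes, at 1.49 to 1.60. The genes nearest to Reg3g, Atp5g3 (0.450), Arpc5 (0.549) and H2-Q1 (0.589), and to Reg4, B2m (0.448), Rcn1 (0.481) and Cd47 (0.523), were farther off than those of the other members.

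**Figure D5:**
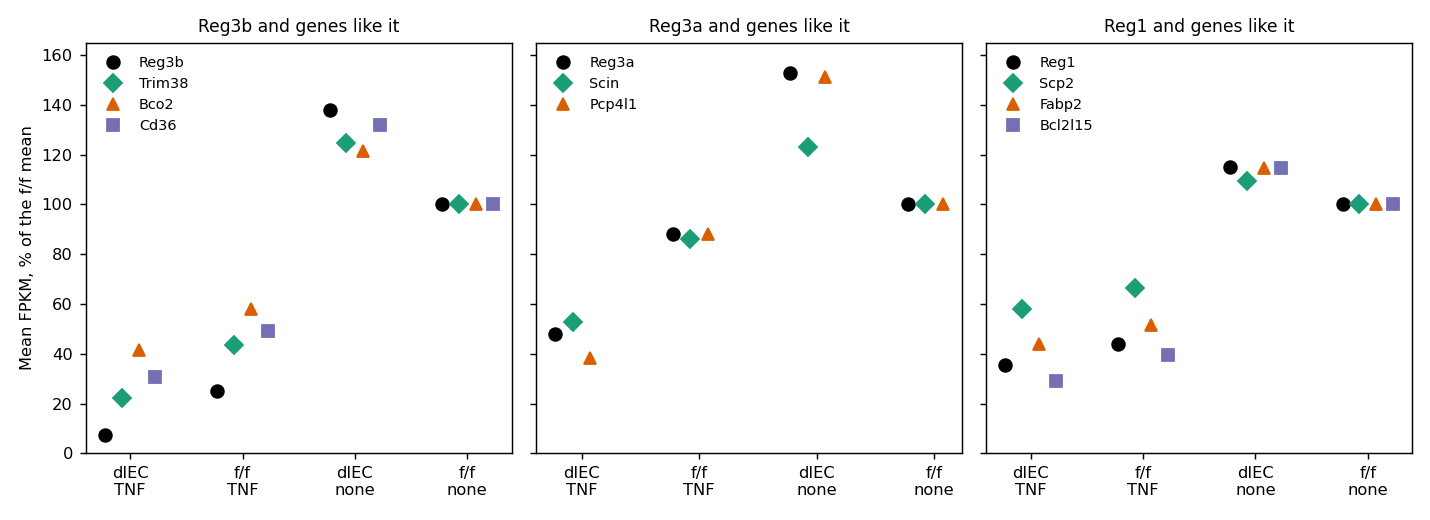
Mean FPKM as a percentage of the unstimulated f/f mean for Reg3b, Reg3a and Reg1 and genes near to each in pattern, by group. Reg3b is at 7.28% in dIEC with TNF and 25.2% in f/f with TNF, while Trim38 is at 22.1% and 43.6% in the same groups.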

How the data were processed

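The authors deposited 1 FPKM value per gene and library. Per the submitters' processing notes, the tools were Cuffdiff, Cufflinks 2.2.1 and TopHat2 2.1.1 and the build was mm10, with settings not given. Of the per-sample columns, 0 were left unused. The planned analysis had expected normalized read values, as the table is titled, its columns are headed FPKM, and the test for FPKM provided for in it was used. Values were analysed as log2(FPKM + 1) with limma 3.58.1 in R 4.3.3 (variance trend, 1 mean per group over all 16 libraries, two-sided, Benjamini-Hochberg adjustment over 11097 rows averaging at least 1 FPKM; 12750 rows fell below it). The 5 comparisons were the genotypes with and without TNF, TNF in each genotype, and the difference of the TNF responses. The test was tried on simulated data with noise drawn independently for each gene and library. Such data hold no shift shared within a library, so they cannot show how the test fares with the 4 libraries apart. The other settings tried were scaling, minimum, pseudocount, sample weights, replicate blocks, fits of fewer libraries and each library left out. The Reg genes and all lists were chosen with earlier results of these data known. Named genes were all 6 members, Atg16l1, up to 4 called genes of smallest adjusted p per list and comparison, and the 3 genes most like each tested member. Deviations from group means were correlated between same-numbered libraries with and without TNF. In dIEC r ran from 0.118 to 0.419 (4 of 4 pairs over 0.1) and in f/f from -0.0296 to 0.321 (3 of 4). Differently numbered libraries gave -0.253 to 0.159 within a genotype and -0.313 to 0.413 between genotypes. Within a genotype the median r was 0.188 for same-numbered libraries and -0.072 for differently numbered ones. The 4 libraries apart also share a number within each genotype (f/f library 1 and dIEC library 4, with and without TNF). The ranges of r overlap, and pairing by number is neither established nor excluded. No label says what a number shares. Transcripts and promoters were compared in Python 3.11.15 with Biopython 1.88. Depth is unknown, so that counting error cannot be given. A few genes named by this rule are not reported here.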

Additional observations from a re-analysis of the deposited data

Results flagged for a closer look

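In 4 of the 23 groups of values tested, 1 library lay far from the other 3 of its group, and chance flags about 1 in 20 groups. Reg1 was highest at 531 FPKM in dIEC library 4 with TNF, the other 3 having 475 to 480.4 FPKM. Reg2 was highest at 0.0938 FPKM in the same library, the other 3 being listed at 0. A single value above 0 is always flagged in such a group, so the chance rate does not apply to Reg2. Reg3a was highest at 245 FPKM in f/f library 3 with TNF, the others having 218 to 222 FPKM. Reg3g was lowest at 41.4 FPKM in f/f library 1 with TNF, the others having 53.2 to 54.4 FPKM. Of these, dIEC library 4 and f/f library 1 with TNF are among the 4 libraries apart on the second component. The TNF response differed between dIEC and f/f organoids, by limma's test of the difference (dIEC minus f/f), for Reg3b (-2.23), Reg3a (-1.49) and Reg1 (-0.50). For Reg1 the limma adjusted p of 0.0492 was at the edge of the threshold, and the call was lost under 16 of 26 other settings.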

How the results depend on the processing

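Under the alternatives run (27 for TNF within a genotype, 26 for the other comparisons), the falls of Reg3b and Reg1 with TNF in both genotypes, of Reg3a with TNF in dIEC organoids, the differences of response of Reg3b (-2.37 to -2.14) and Reg3a (-1.59 to -1.44), both genotype differences of Reg3a and those of Reg3b and Reg4 with TNF kept their direction and call. The number of Reg genes called between unstimulated dIEC and f/f organoids was 2, against 1 after quantile normalization, 5 with sample weights, 4 without the 4 libraries apart, 1 in a fit of the 8 unstimulated libraries, and 1 to 3 with 1 library left out. The counts with 1 library left out were 3 to 4 for genotype with TNF, 3 to 4 for TNF in dIEC organoids, 2 to 3 for TNF in f/f organoids and 2 to 3 for the difference. The difference of response of Reg3g, never called, was 0.05 and changed sign with sample weights (-0.131), without the 4 libraries apart (-0.116) and with f/f library 1 of the TNF group left out (-0.0391, single omissions giving -0.0391 to 0.0974). The cause of these changes was not tested. Same-numbered libraries of different genotypes correlated with r from -0.180 to 0.311 (16 pairs), so numbers were not taken as pairs between genotypes. With a replicate block by number the counts were 2 unstimulated, 3 with TNF, 3 for TNF in f/f organoids, 4 for TNF in dIEC organoids and 3 for the difference; with a block by genotype and number they were 3, 4 and, for the difference, 4, adding Reg4 (0.26, limma adjusted p = 0.0285), and no other call of a Reg gene changed. Over all genes, 258 were called unstimulated, 131 to 1781 under other settings, 138, 140, 142 without f/f library 2, 3, 4 and 141, 152 without dIEC library 1, 2. With TNF 721 were called between genotypes (518 to 2556), and 365 for the difference (239 to 1920). Depth is unknown, which limits what can be said of Reg2 and Reg3d.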
